A study of Mus musculus with 12 samples.

Results

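The genes described here encode the secreted and membrane-bound proteases that cut extracellular matrix, the inhibitors of those proteases and the lysyl oxidases, as measured in the mouse left ventricle. Members were taken by symbol from a table of 29564 genes, and 56 genes matched. They were 23 matrix metalloproteinases (Mmp), 4 tissue inhibitors of metalloproteinases (Timp), 19 Adamts proteases, 5 Adamts-like genes (Adamtsl) and 5 lysyl oxidases (Lox and Loxl). Of these, 46 passed the filter on low counts and were tested. Poly(A) RNA from the left ventricle of 12 wild-type C57BL6 mice was sequenced, with 1 library for each mouse and 4 mice to a group. Control-Veh mice (labelled Control + Veh) were non-failing and received vehicle (libraries C1 to C4). HFpEF-Veh mice carried a diet and drug model of HFpEF, that is, heart failure in which the ejection fraction is preserved. They were fed high-fat food and given L-NAME, which blocks nitric oxide synthases, and received vehicle (HFpEF + Veh, libraries V1 to V4). HFpEF-TYA-018 mice carried this model too and were dosed orally with TYA-018 at 15 mg/kg, a compound that inhibits the deacetylase HDAC6 (HFpEF + TYA-018, libraries T1 to T4). The labels disagree on the schedule, since the title of the series gives 1 dose and the treatment notes give daily dosing for weeks. The study's methods describe daily dosing, while its account of this sequencing describes hearts taken hours after 1 dose, and that reading is followed here. The 3 groups share strain, genotype and tissue. The labels give neither sex nor age, and no control mouse received TYA-018.

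Matrix metalloproteinases are made as inactive precursors, are switched on by removal of a propeptide, and cut collagens, gelatins, elastin and many signalling proteins. The 4 TIMP proteins bind active metalloproteinases and block them, so the balance between both families is commonly taken as a measure of matrix turnover in the heart. ADAMTS proteases trim procollagen, cut the proteoglycan versican or process von Willebrand factor, and ADAMTS-like proteins resemble them without the catalytic domain and bind fibrillin microfibrils. Lysyl oxidases oxidise lysine side chains in collagen and elastin, which lets the fibres form covalent cross-links and stiffens the tissue. RNA levels do not measure the activity of any of these enzymes.

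RefSeq promoter entries (GRCm38.p6) were matched for 37 of the 56 members, and the 250 bases before each start site were searched on both strands for 4 short motifs. These were the AP-1 motif TGANTCA, the SP1 motif GGGCGG, the TATA box TATAAA and the ETS motif CCGGAA. A cluster of 10 Mmp genes lies on chromosome 9 between bases 7272514 and 7699585. Of these 10 genes, 8 held the AP-1 motif, 7 the TATA box and 0 the SP1 motif. Of the other 27 members with an entry, 0 held the AP-1 motif, 3 the TATA box and 21 the SP1 motif. Over all 32851 promoter entries, 6.75% held the AP-1 motif, 12.4% the TATA box, 32.7% the SP1 motif and 12% the ETS motif. A match is a string of letters and not a measured binding site, and a window without one says nothing about the factor. Several windows are shown, 5′ to 3′ on the strand of the gene, with motif matches in capitals, because these genes stand for the patterns described in the results. Timp1 and Mmp14 were higher in HFpEF-Veh and lower after the dose, Timp4 and the cluster gene Mmp3 were lower after the dose, and Adamtsl2 was higher with and without the dose.
Timp1 (chrX:20869916-20870165, plus strand): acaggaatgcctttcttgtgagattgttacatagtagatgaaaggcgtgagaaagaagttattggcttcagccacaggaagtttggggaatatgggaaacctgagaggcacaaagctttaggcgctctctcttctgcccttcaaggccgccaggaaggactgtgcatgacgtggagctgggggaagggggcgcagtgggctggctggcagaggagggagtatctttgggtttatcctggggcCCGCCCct
Timp4 (chr6:115252206-115252455, minus strand): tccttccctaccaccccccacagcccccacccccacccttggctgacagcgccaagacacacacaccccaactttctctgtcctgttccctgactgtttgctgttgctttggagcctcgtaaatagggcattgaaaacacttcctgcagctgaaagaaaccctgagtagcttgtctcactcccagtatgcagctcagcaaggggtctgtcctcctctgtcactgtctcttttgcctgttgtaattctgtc
Mmp14 (chr14:54431348-54431597, plus strand): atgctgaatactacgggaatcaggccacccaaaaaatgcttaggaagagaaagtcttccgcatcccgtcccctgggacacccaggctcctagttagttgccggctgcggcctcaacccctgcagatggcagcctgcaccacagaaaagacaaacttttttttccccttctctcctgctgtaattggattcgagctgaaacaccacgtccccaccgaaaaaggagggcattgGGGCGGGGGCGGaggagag
Mmp3 (chr9:7445572-7445821, plus strand): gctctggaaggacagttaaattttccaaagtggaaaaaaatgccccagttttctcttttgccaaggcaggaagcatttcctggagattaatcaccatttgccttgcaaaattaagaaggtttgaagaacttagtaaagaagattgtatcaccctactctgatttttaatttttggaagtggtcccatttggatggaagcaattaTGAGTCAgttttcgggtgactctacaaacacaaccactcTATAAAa
Adamtsl2 (chr2:27079129-27079378, plus strand): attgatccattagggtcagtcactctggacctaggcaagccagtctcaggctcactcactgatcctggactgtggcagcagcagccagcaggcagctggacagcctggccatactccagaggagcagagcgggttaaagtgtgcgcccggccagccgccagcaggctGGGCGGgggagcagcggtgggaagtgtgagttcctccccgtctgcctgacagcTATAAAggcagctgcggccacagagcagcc
In the windows shown, matches did not overlap. The AP-1 match of Mmp3 began 46 bases before its start and its TATA box 7 bases before it. The TATA box of Adamtsl2 began 30 bases before the start. The SP1 match of Timp1 began 8 bases before the start and the matches of Mmp14 began 19 and 13 bases before it, while the Timp4 window held none of the 4 motifs. The windows of Timp2 and Timp3 held 1 SP1 match each and are not shown because they reach into the annotated transcripts.

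Library totals ranged from 61.2 to 83.9 M estimated counts. The mitochondrial share of counts was 43.1% to 47.7% in HFpEF-Veh, beside 37% to 40.6% in Control-Veh and 35.4% to 41.2% in HFpEF-TYA-018, so HFpEF-Veh did not overlap the other groups. Its part in the member results was not tested. Without mitochondrial and globin genes (14316 genes tested, beside 14333), the 3 comparisons again called 19, 16 and 3 members. Taking out these few rows leaves the difference between the groups in place, so it does not test that part. Members took between 0.0952% and 0.135% of a library's counts. Ventricular muscle genes (6 listed, summed level 25309 to 36294 CPM in Control-Veh) were far above atrial muscle genes (5 listed, 127 to 244 CPM). CPM are counts scaled to a common library size after TMM normalization, and each group value below is a mean ± SD of 4 libraries. Red cell genes stood apart in HFpEF-Veh: 7 of 7 were higher there and 7 of 7 were lower after the dose. Their summed level was 1554 to 2309.9 CPM in Control-Veh libraries, 4789.5 to 14155 CPM in HFpEF-Veh and 2297.9 to 3573 CPM in HFpEF-TYA-018. Libraries with more red cell RNA were therefore the HFpEF-Veh libraries, and the highest was V1. With a red cell score as a covariate in edgeR, 0 members were called in HFpEF-Veh against Control-Veh (12 at an unadjusted p under 0.05) and 0 after the dose (13), where 3 and 0 of all 14333 genes were called. Without V1, 15 and 13 members were called, beside 19 and 16 with all libraries. The shares of all genes called were 17.3% and 13.8% without V1, beside 21.2% and 19.3% with all libraries. Every HFpEF-Veh library had a higher red cell sum than every other library, so this fit cannot tell red cell RNA from the group. The part of red cell RNA in the member results was not tested. Whether the 4 libraries of a group came from separate cages or days is not given, so p-values measure the spread between these libraries. In bulk tissue, fewer cells of a type and less RNA per cell cannot be told apart.

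The first comparison asked how the model altered these genes. In HFpEF-Veh compared to Control-Veh, 16 of the 46 tested members were higher and 3 were lower at an adjusted p under 0.05 (edgeR). Among all 14333 genes tested, 21.2% were called in this comparison, 10.9% higher and 10.3% lower. The median log2 fold change of the 46 members was 0.41, beside -0.011 for all genes tested. The 4 libraries of each group did not overlap for 16 members that were higher and 3 that were lower, beside 23.5% of all genes. By family, 5 Mmp, 3 Timp, 4 Adamts, 1 Adamtsl and 3 Lox genes were higher, and the members that were lower were Mmp9, Adamts7 and Adamtsl4. With the deposited gene lengths as an offset the split was 12 higher and 0 lower, where 10.1% of all genes were called. On log2(TPM + 1) of protein-coding genes it was 9 higher and 0 lower (7.95% of all genes called). On log2(TPM + 1) of all tested genes it was 1 higher and 0 lower (1.2% of all), where the median of all genes was -0.069. All 19 called members kept their sign on these 3 scales.

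The second comparison asked what the dose altered in hearts with the model. In HFpEF-TYA-018 compared to HFpEF-Veh, 0 members were higher and 16 were lower. The background was 19.3% of all genes called, 8.93% higher and 10.4% lower. The median log2 fold change of the 46 members was -0.35, beside 0.0020 for all genes. Non-overlapping groups were found for 14 members, all lower after the dose, beside 25.1% of all genes. The 16 members were 3 Mmp, 4 Timp, 5 Adamts and 4 Lox genes, and 0 of the 5 Adamtsl genes were called. This comparison shares the HFpEF-Veh libraries with the first, so the values of the 2 comparisons are not independent. The count fell to 10 without T1 and to 9 without T2, where the share of all genes called fell to 10.2% and 11.2%. It also depended on the scale, as did the share of all genes. With deposited lengths as an offset, 1 member was higher and 8 were lower (8.49% of all genes called). On log2(TPM + 1) of protein-coding genes 0 were higher and 7 lower (5.58% of all). On log2(TPM + 1) of all tested genes 3 were higher and 0 lower (16.0% of all). On that last scale the median of all genes was 0.17 above HFpEF-Veh, and 13 of the 16 called members were lower relative to that median, the exceptions being Timp2, Loxl1 and Loxl3. The length offset and protein-coding TPM, called length-based scales below, are therefore given wherever a call was lost on them. On log2(TPM + 1) of all tested genes, 0 of the 16 dose calls and 1 of the 19 model calls (Loxl2) were kept. Losses on that scale are named for only some genes below. The 3 members called higher on log2(TPM + 1) of all tested genes were Mmp15, Adamtsl5 and Adamtsl1.

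**Figure D1:**
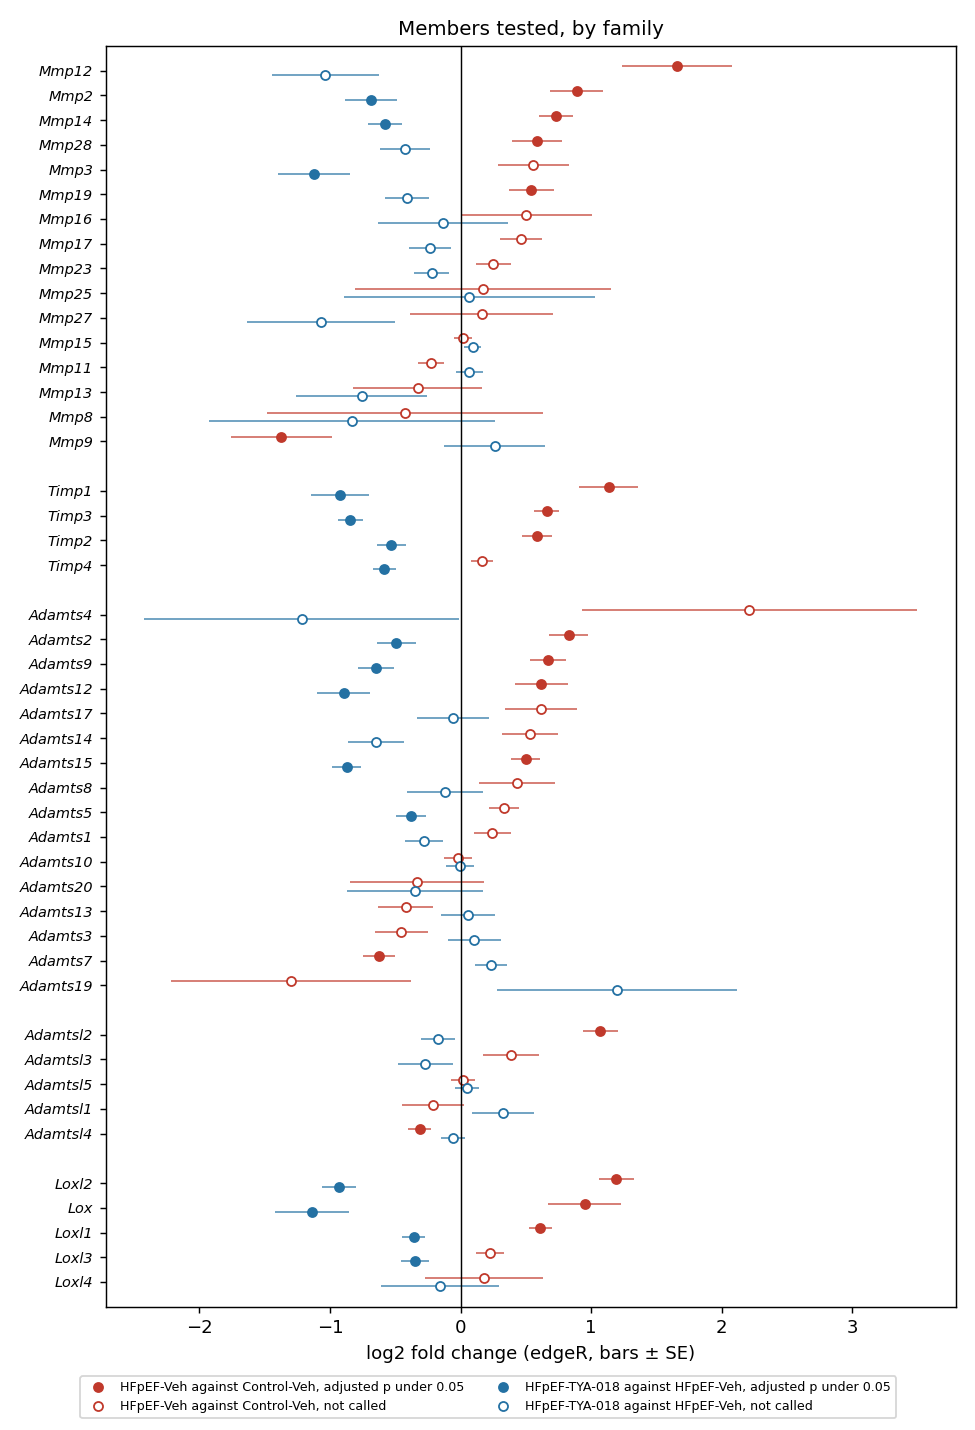
Log2 fold change (x axis, edgeR, bars ± SE, 4 libraries per group) of each of the 46 tested members, grouped by family, in HFpEF-Veh against Control-Veh (red) and HFpEF-TYA-018 against HFpEF-Veh (blue). Filled points passed an adjusted p of 0.05: 19 red points, of which 16 lie right of 0, and 16 blue points, which all lie left of 0 on counts. On log2(TPM + 1), 5 of these 16 dose differences lay right of 0 (Timp2, Adamts2, Adamts5, Loxl1 and Loxl3). The 2 comparisons share the HFpEF-Veh libraries.

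Among the inhibitors, Timp1, Timp2 and Timp3 were higher with the model than without it, by 2.19-, 1.5- and 1.58-fold, and all 4 Timp genes were lower after the dose on counts, with Timp2 turning to above 0 on log2(TPM + 1). Timp3 encodes the inhibitor that is bound to the matrix and that also blocks ADAM17 and several ADAMTS proteases. Its level was 475, 368, 368 and 375 CPM in Control-Veh, 613, 639, 613 and 637 CPM in HFpEF-Veh and 305, 337, 360.1 and 393 CPM in HFpEF-TYA-018. The lowest HFpEF-Veh library lay above the highest of both other groups, and C1 was the highest of the other 8. The means were 397 ± 52.4, 626 ± 14.4 and 349 ± 36.9 CPM. The log2 fold change was 0.66 ± 0.10 (SE, adjusted p = 0.0011) with the model and -0.84 ± 0.10 (adjusted p = 0.000637) after the dose, and -0.19 ± 0.10 (adjusted p = 0.279) between treated and control hearts. Timp3 lies within the gene Syn3 on the opposite strand, with which it shared 21.1% of its 31-base words, and Syn3 itself had at most 37 estimated counts in a library, beside 21888 or more for Timp3.

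Timp2, which blocks MMP2 and also takes part in its activation by MMP14, was at 74, 49.8, 59.2 and 53.3 CPM in Control-Veh, 87.1, 95.7, 84 and 88.1 CPM in HFpEF-Veh and 58.6, 54.6, 64.1 and 68.5 CPM in HFpEF-TYA-018, with means of 59.1 ± 10.7, 88.7 ± 4.96 and 61.5 ± 6.09 CPM. All 4 HFpEF-Veh libraries lay above the other 8. Its log2 fold change was 0.59 ± 0.11 (adjusted p = 0.00441) with the model. After the dose it was -0.53 ± 0.11 on counts (adjusted p = 0.00848), -0.19 with lengths as an offset (adjusted p = 0.44) and 0.20 on log2(TPM + 1), which is 0.036 above the median of all genes on that scale. On protein-coding TPM both calls were lost (adjusted p = 0.0751 with the model and 0.504 after the dose). The deposited length of Timp2 was 7390.2, 7285, 6625 and 7248 bases in HFpEF-Veh and 3579, 5416, 5758 and 6275 bases in HFpEF-TYA-018, so the lengths themselves did not overlap between these groups. Deposited lengths, here and below, are effective lengths from the estimation of levels and not transcript sizes. The longest annotated transcript of Timp2 has 3709 bases.

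Timp1, an inhibitor that many cells raise in inflammation and fibrosis, was at 1.63, 2.12, 1.59 and 1.3 CPM in Control-Veh, 2.18, 5.02, 3.6 and 3.75 CPM in HFpEF-Veh and 1.93, 2.06, 1.89 and 1.77 CPM in HFpEF-TYA-018. The HFpEF-Veh libraries spread widely, and V1 lay only just above C2. The means were 1.66 ± 0.339, 3.64 ± 1.16 and 1.91 ± 0.121 CPM, with a log2 fold change of 1.13 ± 0.22 (adjusted p = 0.00503) with the model and -0.93 ± 0.22 (adjusted p = 0.0145) after the dose. The dose call was lost on both length-based scales (adjusted p = 0.0884 with lengths as an offset and 0.0822 on protein-coding TPM). Timp1 lies on chromosome X within Syn1, on the opposite strand, and shared none of its 31-base words with another gene.

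Timp4, the inhibitor that is most restricted to heart muscle and vessels, was at 90.5, 99.2, 89.8 and 86.4 CPM in Control-Veh, 107, 101, 99.6 and 103 CPM in HFpEF-Veh and 58.2, 66.9, 67.9 and 80.9 CPM in HFpEF-TYA-018, with means of 91.5 ± 5.44, 103 ± 3.47 and 68.5 ± 9.34 CPM. The treated libraries lay below all 8 others. HFpEF-Veh libraries all lay above Control-Veh libraries, but the change of 0.17 ± 0.086 did not pass the test (adjusted p = 0.19). After the dose the log2 fold change was -0.58 ± 0.087 (adjusted p = 0.00166), and treated hearts were also lower than Control-Veh hearts, with -0.42 ± 0.086 (adjusted p = 0.0189). Without T2 the last adjusted p was 0.059, and that call was also lost on length-based scales (adjusted p = 0.0655 with lengths as an offset and 0.0945 on protein-coding TPM). Timp4 lies within Syn2 on the opposite strand, with an exon overlap of 90 bases. Per length, the mean over 12 libraries was 19.1 TPM for Timp3, 4.53 TPM for Timp4, 4.05 TPM for Timp2 and 2.54 TPM for Timp1. Timp3 was the highest of the 4 in every library. The order of the others differed between libraries. In Control-Veh, Timp4 (4.83 ± 0.37 TPM) lay above Timp2 (3.25 ± 0.689 TPM) in every library, and in V4 Timp1 (4.37 TPM) lay above both. In HFpEF-TYA-018 the means of Timp4 and Timp2 were 4.2 ± 0.446 and 4.95 ± 2.22 TPM, with medians of 4.00 and 4.01 TPM. Timp2 reached 8.25 TPM in T1, and Timp4 lay above Timp2 in T2 and T4 but below it in T1 and T3.

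**Figure D2:**
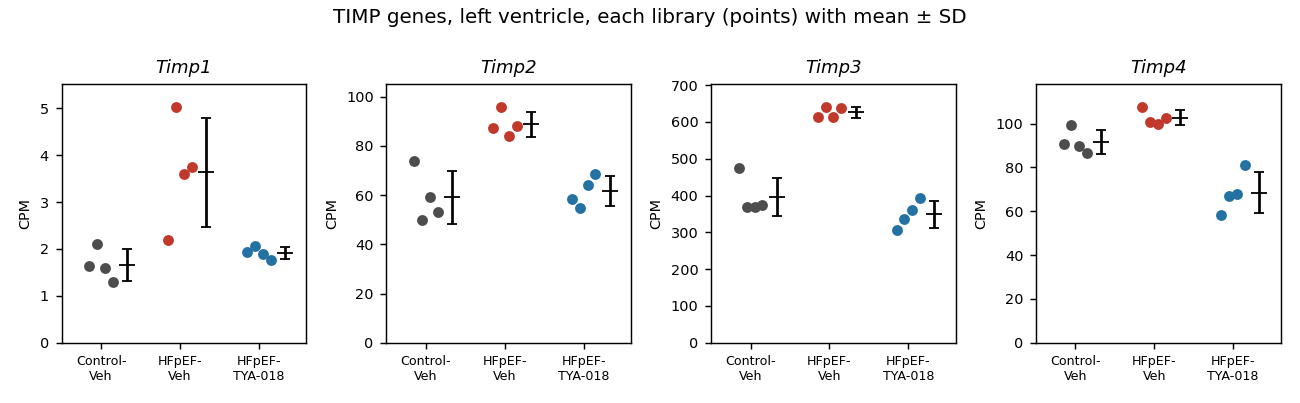
CPM (y axis, from 0) of the 4 Timp genes in each left ventricle library (points) by group, with the mean ± SD of 4 libraries beside them. Timp3 sits near 626 CPM in all 4 HFpEF-Veh libraries and at most at 475 CPM in the other 8, and Timp4 is lowest in the treated group.

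Among the metalloproteinases, Mmp2 and Mmp14 were higher in HFpEF-Veh and lower after the dose, Mmp12, Mmp19 and Mmp28 were higher in HFpEF-Veh, Mmp9 was lower in HFpEF-Veh, and Mmp3 was lower after the dose. Mmp2 encodes gelatinase A, made mainly by fibroblasts. It was at 30.4, 14.3, 25.4 and 16.9 CPM in Control-Veh, 42.7, 46.9, 33.4 and 38.2 CPM in HFpEF-Veh and 23.9, 22.4, 26.8 and 27 CPM in HFpEF-TYA-018. V3, the lowest of its group, lay above C1, the highest control. The means were 21.7 ± 7.48, 40.3 ± 5.8 and 25 ± 2.23 CPM. Mmp2 differed by 0.89 ± 0.20 on the log2 scale with the model (adjusted p = 0.0096) and by -0.69 ± 0.20 after the dose (adjusted p = 0.032). The second call was lost without any one of T1, T2, T3, V1, V2 or V4, with adjusted p up to 0.0869 (without T2), and on length-based scales (adjusted p = 0.0608 with lengths as an offset and 0.139 on protein-coding TPM).

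Mmp14 encodes the membrane-type protease that activates the precursor of MMP2 at the cell surface. Its level was 10.3, 8.56, 7.74 and 7.56 CPM in Control-Veh, 12.3, 17.4, 12.6 and 14.4 CPM in HFpEF-Veh and 9.35, 8.84, 8.77 and 11.1 CPM in HFpEF-TYA-018, again with every HFpEF-Veh library above the other 8. Mean levels were 8.55 ± 1.27, 14.2 ± 2.32 and 9.51 ± 1.09 CPM, a log2 fold change of 0.73 ± 0.13 with the model (adjusted p = 0.00326) and -0.58 ± 0.13 after the dose (adjusted p = 0.0116). Both calls held with each library left out in turn, and the second also held with lengths as an offset (-0.62, adjusted p = 0.0245). Both were lost on log2(TPM + 1) and log2(TPM + 0.1) of all tested genes and with the red cell covariate. Mmp15, a second membrane-type protease and the Mmp with the highest mean CPM, was at 53.6, 54.3 and 57.9 CPM in the 3 groups and was not called on counts (adjusted p = 0.869 and 0.34). With lengths as an offset it was 0.35 higher after the dose (adjusted p = 0.0468).

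Mmp3 encodes stromelysin-1, which cuts proteoglycans and activates other Mmp precursors. It was at 3.84, 2.55, 1.83 and 1.9 CPM in Control-Veh, 2.87, 4.69, 4.27 and 3.07 CPM in HFpEF-Veh and 1.48, 1.43, 1.44 and 2.5 CPM in HFpEF-TYA-018, with means of 2.53 ± 0.932, 3.72 ± 0.89 and 1.71 ± 0.526 CPM. The treated libraries lay below all HFpEF-Veh libraries, and T4 stood above the other 3 treated libraries. The difference with the model was 0.56 ± 0.27 and did not pass (adjusted p = 0.165), whereas after the dose it was -1.12 ± 0.28 (adjusted p = 0.0163). That call was lost without T1 (adjusted p = 0.054) or T2 (0.052).

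Mmp12, or macrophage elastase, was at 0.556, 0.226, 0.189 and 0.423 CPM in Control-Veh, 0.55, 1.37, 1.08 and 1.44 CPM in HFpEF-Veh and 0.329, 0.477, 0.793 and 0.566 CPM in HFpEF-TYA-018, with means of 0.349 ± 0.172, 1.11 ± 0.404 and 0.541 ± 0.194 CPM. V1 was at the level of C1, and V2 to V4 lay above every other library. The log2 fold change was 1.66 ± 0.42 with the model (adjusted p = 0.0164) and -1.03 ± 0.41 after the dose, which did not pass (adjusted p = 0.0988). The model call was lost on length-based scales (adjusted p = 0.296 with lengths as an offset and 0.377 on protein-coding TPM), and the deposited length of Mmp12 ran from 733 to 3668 bases between libraries. Of 9 macrophage and monocyte markers 8 were tested, and 7 were higher in HFpEF-Veh and 3 lower after the dose. Their summed level was 117 to 149 CPM in Control-Veh libraries, 183 to 243 CPM in HFpEF-Veh and 134 to 163 CPM in HFpEF-TYA-018, and the part of these cells in the Mmp12 result was not tested.

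Mmp9 encodes gelatinase B, which neutrophils store in granules. It ran the other way, at 1.15, 0.63, 0.647 and 1.02 CPM in Control-Veh, 0.43, 0.219, 0.471 and 0.208 CPM in HFpEF-Veh and 0.425, 0.216, 0.375 and 0.581 CPM in HFpEF-TYA-018, with means of 0.863 ± 0.265, 0.332 ± 0.138 and 0.399 ± 0.15 CPM. Every control library lay above every HFpEF-Veh library and every treated one. The fall with the model was -1.37 ± 0.39 on the log2 scale (adjusted p = 0.0262), the difference after the dose was 0.26 ± 0.39 (adjusted p = 0.676), and treated against control hearts differed by -1.11 ± 0.38 (adjusted p = 0.111). The first call was lost without C1, C4, V2 or V4 (adjusted p 0.0521 to 0.0708) and on length-based scales (adjusted p = 0.0609 with lengths as an offset and 0.0586 on protein-coding TPM). Of 8 neutrophil markers 5 were tested and 2 were lower in HFpEF-Veh. Their summed level was 4.35 to 11.7 CPM in Control-Veh libraries, 2.07 to 5.02 CPM in HFpEF-Veh and 2.36 to 6.4 CPM in HFpEF-TYA-018, and Mpo was at 0 in all Control-Veh and HFpEF-Veh libraries, Elane in all but C1. The part of neutrophils in the Mmp9 result was not tested.

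Mmp19 and Mmp28, secreted proteases of low level here, passed with little margin. Mmp19 was at 2.59, 2.44, 2.9 and 2.67 CPM in Control-Veh, 3.7, 4.74, 3.1 and 3.92 CPM in HFpEF-Veh and 2.36, 2.36, 3.43 and 3.5 CPM in HFpEF-TYA-018, with means of 2.65 ± 0.193, 3.86 ± 0.678 and 2.91 ± 0.641 CPM. The log2 fold change of Mmp19 was 0.54 ± 0.17 (adjusted p = 0.0393) with the model and -0.41 ± 0.17 after the dose (adjusted p = 0.111). Mmp28 was at 5.19, 3.54, 3.83 and 3.59 CPM in Control-Veh, 6.6, 6.83, 5.21 and 5.62 CPM in HFpEF-Veh and 4.11, 3.4, 4.2 and 6.39 CPM in HFpEF-TYA-018, with means of 4.04 ± 0.781, 6.07 ± 0.773 and 4.52 ± 1.29 CPM. The log2 fold change of Mmp28 was 0.59 ± 0.19 (adjusted p = 0.0469) with the model and -0.42 ± 0.19 after the dose (adjusted p = 0.142). In both, the HFpEF-Veh libraries lay above the control libraries and overlapped the treated ones. Leaving out 1 library ended the first call in 7 of 12 cases for Mmp19 and 9 of 12 for Mmp28, with adjusted p up to 0.106 (without V2) and 0.118 (without C2). The call of Mmp19 was also lost on length-based scales (adjusted p = 0.0733 with lengths as an offset and 0.0723 on protein-coding TPM), and that of Mmp28 had an adjusted p = 0.1 on protein-coding TPM. Mmp19 shared 26.7% of its 31-base words with other genes, mainly Tmem198b. Mmp17, a membrane-anchored protease, was higher in all 4 HFpEF-Veh libraries than in all 4 controls without passing the test (0.47 ± 0.16, adjusted p = 0.0575).

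**Figure D3:**
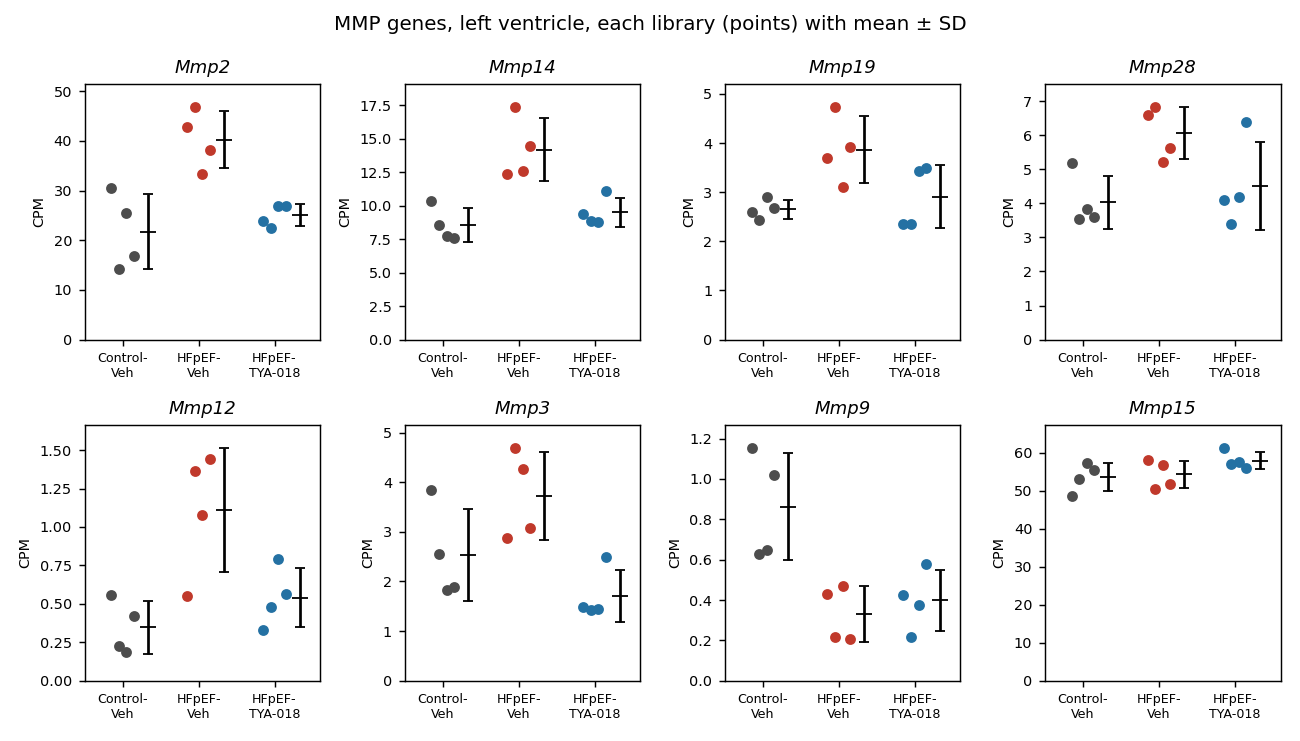
CPM (y axis, from 0) of 8 Mmp genes in each library (points) by group, with the mean ± SD of 4 libraries. Mmp2 and Mmp14 peak in HFpEF-Veh, Mmp9 is highest in Control-Veh, and Mmp15 lies at 53.6, 54.3 and 57.9 CPM on average.

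Among the Adamts proteases, Adamts2, Adamts9, Adamts12 and Adamts15 were higher in HFpEF-Veh and lower after the dose, Adamts5 was lower after the dose, and Adamts7 was lower in HFpEF-Veh. For Adamts2 and Adamts5 the dose difference lay above 0 on log2(TPM + 1). Adamts2 encodes a procollagen N-proteinase, which trims fibrillar procollagens so that they can assemble. It was at 13.2, 7.74, 11.3 and 10.7 CPM in Control-Veh, 15.7, 21.3, 19.1 and 20.2 CPM in HFpEF-Veh and 13, 11.6, 15.1 and 14.5 CPM in HFpEF-TYA-018, with means of 10.7 ± 2.27, 19 ± 2.4 and 13.5 ± 1.57 CPM. The HFpEF-Veh libraries lay above both other groups, and the treated libraries overlapped the controls at their upper end. Adamts2 rose by 1.78-fold with the model (log2 0.83 ± 0.15, adjusted p = 0.00313). After the dose it was lower on counts (-0.49 ± 0.15, adjusted p = 0.037) and was 0.055 on log2(TPM + 1), which is 0.11 below the median of all genes on that scale. That second call was lost without any one of C3, C4, T1, T2, V2, V3 or V4 (adjusted p up to 0.105) and on length-based scales (adjusted p = 0.257 with lengths as an offset and 0.379 on protein-coding TPM). The other procollagen N-proteinases were not called: Adamts14 differed by 0.53 ± 0.21 with the model (adjusted p = 0.0945) and by -0.64 ± 0.21 after the dose (adjusted p = 0.053), and Adamts3 by -0.45 ± 0.20 and 0.10 ± 0.20 (adjusted p = 0.129 and 0.76).

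Adamts9 and Adamts15 encode proteases that cut versican. Adamts9 was at 25.8, 18.6, 24.1 and 21.6 CPM in Control-Veh, 40.5, 37.1, 38 and 27.4 CPM in HFpEF-Veh and 19.1, 23.8, 26.5 and 21.9 CPM in HFpEF-TYA-018. V4 lay about as high as the highest treated library and the other 3 HFpEF-Veh libraries stood well above the rest. Its log2 fold change was 0.67 ± 0.14 with the model (adjusted p = 0.00622) and -0.65 ± 0.14 after the dose (adjusted p = 0.00835), with group means of 22.5 ± 3.14, 35.8 ± 5.78 and 22.8 ± 3.11 CPM. The dose call was lost on length-based scales (adjusted p = 0.0881 with lengths as an offset and 0.165 on protein-coding TPM), and the model call had an adjusted p = 0.0644 on protein-coding TPM. Adamts15 was at 4.22, 4.3, 4.19 and 3.69 CPM in Control-Veh, 6.45, 5.73, 5.96 and 5.05 CPM in HFpEF-Veh and 3.73, 2.91, 2.97 and 3.05 CPM in HFpEF-TYA-018, with means of 4.1 ± 0.276, 5.8 ± 0.58 and 3.17 ± 0.379 CPM. The 3 groups were ordered with treated libraries lowest, although T1 reached the lowest control. It differed by 0.50 ± 0.11 (adjusted p = 0.00903) with the model and by -0.87 ± 0.11 (adjusted p = 0.00102) after the dose. Treated against control, the difference of -0.37 ± 0.11 did not pass (adjusted p = 0.0727), but it passed without T1 (adjusted p = 0.0465).

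Adamts12 and Adamts7 are relatives that cut cartilage oligomeric matrix protein, and with the model they moved in opposite directions. Adamts12 was at 1.19, 0.937, 0.946 and 1.02 CPM in Control-Veh, 1.36, 1.2, 1.99 and 1.75 CPM in HFpEF-Veh and 0.733, 0.955, 0.764 and 0.938 CPM in HFpEF-TYA-018, with means of 1.02 ± 0.119, 1.57 ± 0.362 and 0.847 ± 0.115 CPM. Its differences were 0.62 ± 0.20 (adjusted p = 0.0454) and -0.89 ± 0.20 (adjusted p = 0.0107). The first of these calls was lost in 10 of 12 leave-one-out fits, and held only without C1 or V2. It was lost on length-based scales too (adjusted p = 0.0878 with lengths as an offset and 0.113 on protein-coding TPM), and the dose call had an adjusted p = 0.0545 on protein-coding TPM. Adamts7 was at 25.1, 28.4, 30.7 and 30.7 CPM in Control-Veh, 20.8, 18.6, 16.9 and 18.1 CPM in HFpEF-Veh and 26.9, 23.7, 18.6 and 18.2 CPM in HFpEF-TYA-018, with means of 28.7 ± 2.65, 18.6 ± 1.64 and 21.8 ± 4.18 CPM. All HFpEF-Veh libraries lay below all controls, while T1 and T2 lay above HFpEF-Veh and T3 and T4 among them. It fell by 0.63 on the log2 scale with the model (SE 0.12, adjusted p = 0.0048), a call that was lost on length-based scales (adjusted p = 0.147 with lengths as an offset and 0.173 on protein-coding TPM). The dose difference of 0.23 ± 0.12 and the treated against control difference of -0.39 ± 0.12 did not pass (adjusted p = 0.206 and 0.0811).

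Adamts5, an aggrecanase that also cuts versican, was at 22.6, 19.7, 18 and 18.2 CPM in Control-Veh, 28.2, 25.2, 21.5 and 24.1 CPM in HFpEF-Veh and 16.9, 17.4, 18.6 and 23.1 CPM in HFpEF-TYA-018, with means of 19.6 ± 2.14, 24.7 ± 2.79 and 19 ± 2.84 CPM. T4 lay among the HFpEF-Veh libraries and T1 to T3 below them. The difference with the model was 0.33 ± 0.11 (adjusted p = 0.0564). After the dose it was -0.38 ± 0.11 on counts (adjusted p = 0.0372) but 0.036 on log2(TPM + 1), 0.13 below the median of all genes there, and the call was lost without any one of T1, T2, T3, V1, V2 or V4 (adjusted p up to 0.111, without T1) and on length-based scales (adjusted p = 0.129 with lengths as an offset and 0.293 on protein-coding TPM). Its neighbour on chromosome 16, Adamts1, had group means of 28.8 ± 6.13, 34.1 ± 5.16 and 28.1 ± 1.4 CPM and was not called (adjusted p = 0.249 and 0.204). Adamts10, which binds fibrillin microfibrils, was at 39.1, 38.5 and 38.4 CPM, and the interval of its dose difference was -0.25 to 0.24 on the log2 scale (95%). Adamts13, which cuts von Willebrand factor, was at 7.36, 5.49 and 5.71 CPM and was not called (adjusted p = 0.171 with the model).

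Adamtsl2 was higher than in Control-Veh in both groups with the model, treated or not. It encodes a secreted protein that binds fibrillin and is linked to restraint of TGF-beta signalling. It was at 16.6, 13.7, 13.4 and 10.6 CPM in Control-Veh, 25.2, 30.8, 27.8 and 30.5 CPM in HFpEF-Veh and 22.2, 28, 29 and 22.4 CPM in HFpEF-TYA-018. Every library with the model lay above every control. The means were 13.6 ± 2.47, 28.6 ± 2.65 and 25.4 ± 3.57 CPM. The rise with the model was 2.1-fold (log2 1.07 ± 0.13, adjusted p = 0.000634). After the dose the difference was -0.17 ± 0.13 with a 95% interval of -0.47 to 0.13 (adjusted p = 0.392), and treated hearts lay above control hearts by 0.90 ± 0.13 (adjusted p = 0.00439). Both calls held with each library left out in turn and with lengths as an offset (1.27, adjusted p = 0.0032, and 0.98, adjusted p = 0.0223). The model call was lost on log2(TPM + 1) of all tested genes and with the red cell covariate. The call of treated against control hearts was lost on log2(TPM + 1) and log2(TPM + 0.1) of all tested genes.

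Adamtsl4, another fibrillin-binding protein, was at 48.3, 56.8, 60.5 and 56.4 CPM in Control-Veh, 42.3, 45.6, 39.8 and 51 CPM in HFpEF-Veh and 46.3, 41.6, 44.4 and 39.3 CPM in HFpEF-TYA-018, with means of 55.5 ± 5.13, 44.7 ± 4.84 and 42.9 ± 3.11 CPM. V4 lay above C1, and every treated library lay below every control. It differed by -0.31 ± 0.089 with the model (adjusted p = 0.0271), by -0.058 ± 0.089 after the dose (adjusted p = 0.689) and by -0.37 ± 0.089 between treated and control hearts (adjusted p = 0.0329). The first call was lost without C2, C3, C4, V1 or V3 (adjusted p up to 0.0799) and the third in 6 of 12 leave-one-out fits (up to 0.0899, without T2). Length-based scales ended the first call (adjusted p = 0.556 with lengths as an offset and 0.658 on protein-coding TPM) and the third (adjusted p = 0.13 with lengths as an offset and 0.125 on protein-coding TPM). On the per-length scale Adamtsl4 led the members at 33.5 TPM, with deposited lengths of only 408 to 662 bases beside a longest annotated transcript of 4036 bases. Adamtsl5, at 77.7, 78.5 and 81.1 CPM, was not called on counts (adjusted p = 0.925 and 0.761).

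**Figure D4:**
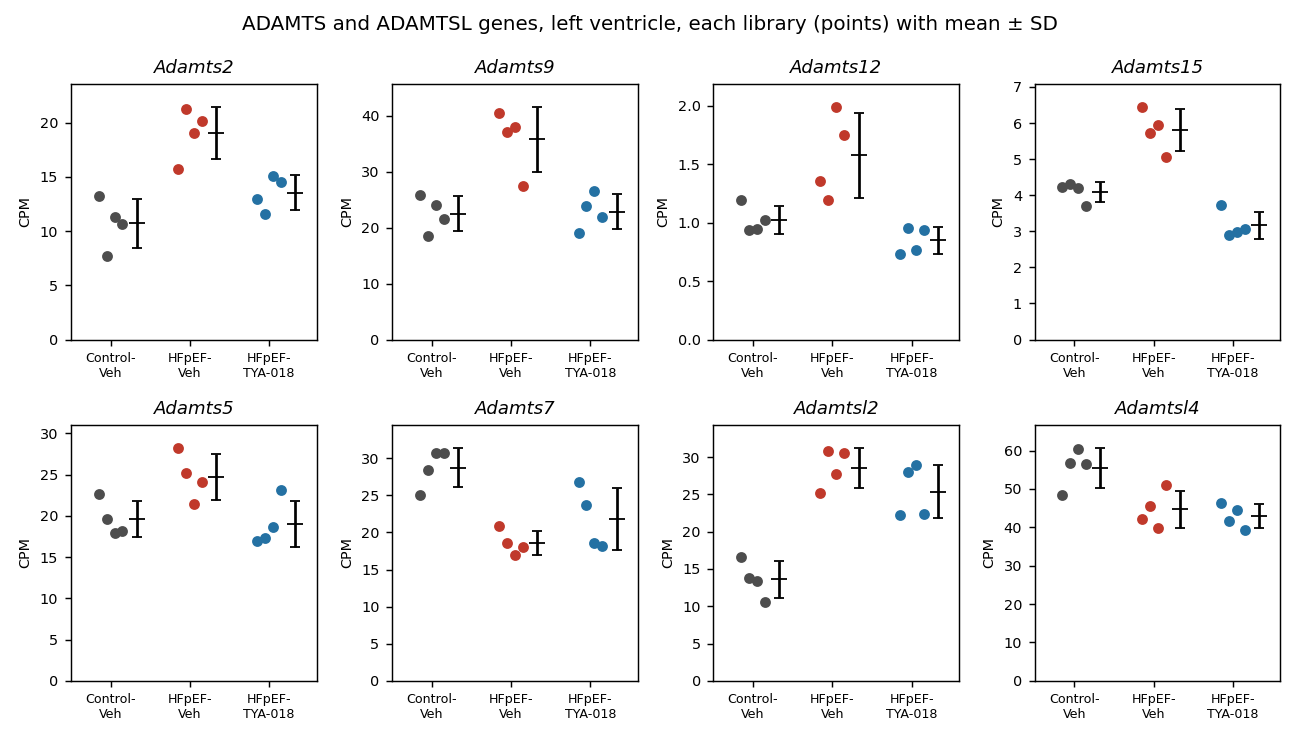
CPM (y axis, from 0) of 6 Adamts and 2 Adamtsl genes in each library (points) by group, with the mean ± SD of 4 libraries. Adamtsl2 lies between 22.2 and 30.8 CPM in all 8 libraries with the model and at most at 16.6 CPM in Control-Veh, whereas Adamts2, Adamts9, Adamts12 and Adamts15 have their highest mean CPM in HFpEF-Veh.

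Of the 5 lysyl oxidases, 3 were higher in HFpEF-Veh and 4 were lower after the dose on counts, of which Loxl1 and Loxl3 lay above 0 on log2(TPM + 1). Loxl2, which cross-links collagens including the collagen IV of basement membranes, had the smallest p of the members with the model. It was at 10.9, 6.69, 8.18 and 6.87 CPM in Control-Veh, 17.3, 19.8, 19.7 and 17.9 CPM in HFpEF-Veh and 9.07, 9.98, 10.1 and 9.99 CPM in HFpEF-TYA-018. The 4 HFpEF-Veh libraries lay far above the other 8, and C1 was the highest control. The means were 8.15 ± 1.93, 18.7 ± 1.27 and 9.79 ± 0.489 CPM. Loxl2 rose 2.29-fold with the model (log2 1.19 ± 0.13, adjusted p = 0.000441) and was lower after the dose (log2 -0.93 ± 0.13, adjusted p = 0.00141). Both calls held with each library left out in turn and with lengths as an offset (1.20, adjusted p = 0.000998, and -0.98, adjusted p = 0.00357). Both were lost with the red cell covariate, and the dose call also on log2(TPM + 1) and log2(TPM + 0.1) of all tested genes. Loxl2 shared 46.4% of its 31-base words with other annotated genes, mainly the near-copy Gm21451, which was at 0 counts in all 12 libraries.

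Lox, the founding lysyl oxidase, was at 5.45, 4.02, 3.15 and 3.53 CPM in Control-Veh, 5.24, 8.95, 8.07 and 9.01 CPM in HFpEF-Veh and 2.49, 2.57, 3.32 and 5.85 CPM in HFpEF-TYA-018, with means of 4.04 ± 1.01, 7.82 ± 1.77 and 3.56 ± 1.57 CPM. V1 lay below C1 and T4 lay above V1, so its groups overlapped, and T4 was the highest treated library. The log2 differences were 0.95 ± 0.28 (adjusted p = 0.0311) with the model and -1.14 ± 0.28 (adjusted p = 0.0163) after the dose. The first call was lost without any one of C2, C3, C4, V2, V3 or V4 (adjusted p up to 0.0845) and on length-based scales (adjusted p = 0.091 with lengths as an offset and 0.0834 on protein-coding TPM), and the second without T1 (0.0535) or T2 (0.052).

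Loxl1, which maintains elastic fibres, was at 27.9, 26.4, 28.3 and 27.7 CPM in Control-Veh, 41.2, 48.3, 36.6 and 42.5 CPM in HFpEF-Veh and 29, 31, 34.6 and 36.9 CPM in HFpEF-TYA-018, with means of 27.6 ± 0.837, 42.1 ± 4.8 and 32.9 ± 3.52 CPM. The control libraries lay within 26.4 to 28.3 CPM, below all 8 others, and T4 lay just above V3. It differed by 0.61 ± 0.089 (adjusted p = 0.0011) with the model. After the dose it was -0.36 ± 0.089 on counts (adjusted p = 0.0163) and 0.24 on log2(TPM + 1), 0.075 above the median of all genes there. The dose call was lost without T1 (0.0536) or T2 (0.053) and on length-based scales (adjusted p = 0.437 with lengths as an offset and 0.55 on protein-coding TPM). Treated against control hearts, Loxl1 differed by 0.25 ± 0.089 without overlap and without passing the test (adjusted p = 0.118).

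Loxl3 was at 4.03, 4.98, 4.51 and 4.93 CPM in Control-Veh, 5.48, 4.87, 5.83 and 5.33 CPM in HFpEF-Veh and 4.72, 4.39, 4.18 and 3.63 CPM in HFpEF-TYA-018, with means of 4.61 ± 0.442, 5.38 ± 0.399 and 4.23 ± 0.455 CPM. The treated libraries lay below all HFpEF-Veh libraries, with a log2 difference of -0.35 ± 0.11 on counts (adjusted p = 0.0416), which turned to 0.11 with lengths as an offset and 0.22 on log2(TPM + 1), 0.055 above the median of all genes there. Its deposited length ran from 1429 to 6561 bases between libraries, and the call was lost in 8 of 12 leave-one-out fits (adjusted p up to 0.105, without V3). Loxl4 was low, at 0.261, 0.296 and 0.267 CPM, and was not called (adjusted p = 0.816 and 0.843).

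**Figure D5:**
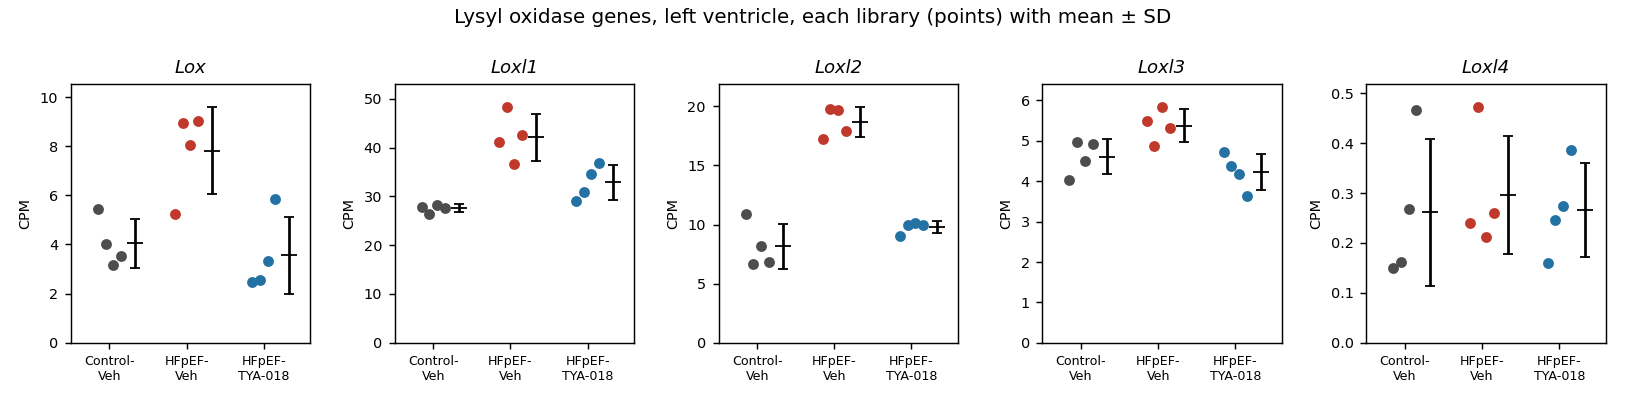
CPM (y axis, from 0) of the 5 lysyl oxidase genes in each library (points) by group, with the mean ± SD of 4 libraries. Loxl2 lies between 17.3 and 19.8 CPM in HFpEF-Veh and at most at 10.9 CPM in the other 8 libraries, and the Lox groups overlap.

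The third comparison set treated hearts with the model against control hearts. Of the 46 members, 1 was higher (Adamtsl2) and 2 were lower (Timp4 and Adamtsl4), where 5.86% of all genes were called, 3.12% higher and 2.74% lower. The median log2 fold change of the members was 0.021, beside -0.018 for all genes. Groups did not overlap for 5 members, beside 14.8% of all genes, and these were Adamtsl2 and Loxl1 (higher) and Timp4, Adamtsl4 and Mmp9 (lower). The count was 5 without T1 and 1 without T2, where 2.78% and 2.12% of all genes were called. With lengths as an offset it was 1 higher and 0 lower, where 1.42% of all genes were called. For members that were not called here the interval gives how far they could still differ: -0.30 to 0.71 for Timp1, -0.25 to 0.65 for Mmp2 and -0.034 to 0.56 for Loxl2 (log2, 95%). Intervals here and above were built on 9 residual degrees of freedom and are somewhat wider than the tests imply. For Adamts3 with the model, the interval was -0.91 to 0.0027 at an unadjusted p of 0.0437 (edgeR). The third comparison shares libraries with both others.

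The rest of the members were called in 0 of the 3 comparisons. Besides those already given, they were Mmp8, Mmp11, Mmp13, Mmp16, Mmp23, Mmp25, Mmp27, Adamts4, Adamts8, Adamts17, Adamts19, Adamts20, Adamtsl1 and Adamtsl3, with means over 12 libraries between 0.117 CPM (Mmp25) and 5.52 CPM (Mmp23). Within the chromosome 9 cluster 5 of 10 genes were tested, and 3 of them (Mmp8, Mmp13 and Mmp27) stayed uncalled at means of at most 0.228 CPM. Adamts4, an aggrecanase, was at 0.176, 0.0646, 0.0788 and 0.0292 CPM in Control-Veh, 0, 0.674, 0.805 and 0.174 CPM in HFpEF-Veh and 0.35, 0, 0.346 and 0 CPM in HFpEF-TYA-018, so that its fitted difference of 2.21 ± 1.28 rested on V2 and V3 (adjusted p = 0.239). The 10 members left out by the filter were Adamts6, Mmp1a, Mmp1b and Mmp20 with 0 counts in all 12 libraries, and Adamts16, Mmp10, Mmp7, Adamts18, Mmp21 and Mmp24 with at most 1, 2.03, 3, 3.12, 6 and 13 estimated counts in a library. A count of 0 allows up to 3 counts, which is 0.0319 to 0.0521 CPM per library, and covers counting error only.

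Deposited gene lengths differed between groups for members and for genes at large. After the dose, 16 of the 46 members had shorter lengths in all 4 treated libraries than in all 4 HFpEF-Veh libraries, and 0 had longer ones. Over all genes the shares were 23.3% shorter and 1.26% longer. The median log2 ratio of lengths was -0.21 for members and -0.15 for all genes. TPM is the count divided by the length and rescaled, so the lengths move with the group in each difference between CPM and TPM above. The median of all genes also moved on log2(TPM + 1), by 0.17 after the dose. Why the lengths differ, and their part in those differences, was not tested.

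The genes that act around the members were read from lists of pathway genes, beside the shares of all genes given above (10.9% higher with the model, 10.4% lower and 8.93% higher after the dose). Of 15 tested substrates of these proteases and of lysyl oxidases, 10 were higher in HFpEF-Veh (0 lower), with a median log2 fold change of 0.71, and 11 were lower after the dose (0 higher), with a median of -0.61. Col4a2, a chain of basement membrane collagen, averaged 205 ± 13.8, 386 ± 32.5 and 249.7 ± 14.8 CPM in control, model and treated hearts, a log2 difference of 0.91 ± 0.076 (adjusted p = 0.000108) and -0.63 ± 0.076 (adjusted p = 0.000725). Col1a1, a chain of fibrillar collagen I, averaged 49.6 ± 7.29, 98.5 ± 13.8 and 69.4 ± 9.56 CPM, with 0.99 ± 0.13 (adjusted p = 0.00077) and -0.50 ± 0.13 (adjusted p = 0.0189). Of 15 tested enzymes that fold, hydroxylate or process collagen, 11 were higher in HFpEF-Veh and 5 lower after the dose, with medians of 0.40 and -0.17. The lysyl hydroxylase gene Plod1 differed by 0.40 ± 0.045 (adjusted p = 0.000441) and -0.23 ± 0.045 (adjusted p = 0.00539), and the collagen folding gene Fkbp14 by 0.98 ± 0.13 (adjusted p = 0.000728) and -0.76 ± 0.13 (adjusted p = 0.00285).

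Of 19 tested other proteases of the matrix, 9 were higher in HFpEF-Veh, and 5 were lower and 1 higher after the dose, with medians of 0.26 and -0.17. The membrane protease gene Adam15 differed by 0.51 ± 0.069 (adjusted p = 0.000906) and -0.47 ± 0.069 (adjusted p = 0.0016), and the macrophage cathepsin gene Ctss by 1.16 ± 0.20 (adjusted p = 0.00231) and -0.72 ± 0.19 (adjusted p = 0.0244). Of 16 protease activators and inhibitors outside the TIMP family, 5 were higher in HFpEF-Veh and 2 lower after the dose, with medians of 0.31 and -0.29. The share that was lower after the dose is near that of all genes. Plat, the tissue plasminogen activator, was higher with the model by 0.52 ± 0.079 (adjusted p = 0.00133), and Furin, which removes the propeptides of membrane-type Mmp and Adamts proteins, by 0.44 ± 0.088 (adjusted p = 0.0054). Their dose differences, -0.16 ± 0.078 and -0.22 ± 0.088, did not pass (adjusted p = 0.18 and 0.0992).

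Marker lists give the cell types that the tissue could hold. Of 7 fibroblast markers, all tested, 4 were higher in HFpEF-Veh and 5 lower after the dose. Their summed level was 460.3 to 673 CPM in Control-Veh libraries, 671 to 945 CPM in HFpEF-Veh and 455 to 648 CPM in HFpEF-TYA-018, and the list holds Col1a1 and Col1a2, which are also substrates. Of 6 markers of activated fibroblasts, 2 of the 5 tested were higher in HFpEF-Veh and 2 lower after the dose, with sums of 87.2 to 149, 136 to 177 and 134 to 157 CPM. Endothelial markers (6 tested) were higher in 3 cases and lower after the dose in 3, with sums of 704 to 802, 853 to 1033 and 669.7 to 827 CPM. Of 6 ventricular muscle genes, 5 were lower in HFpEF-Veh and 1 higher, and 2 were higher after the dose. Smooth muscle and pericyte genes (6 tested, 1 higher in HFpEF-Veh and 1 lower after the dose) summed to 684 to 769 CPM, 802 to 855 CPM and 602 to 756 CPM in control, model and treated hearts, with HFpEF-Veh above both others. The median log2 fold change of these 6 genes ran against their sum, at -0.36 with the model and 0.21 after the dose. Valve and cartilage-like genes (5 of 6 tested, 1 higher in HFpEF-Veh and 0 called after the dose) summed to 5.09 to 7.65 CPM, 9.89 to 12.8 CPM and 8.5 to 13.3 CPM. Epicardial genes (2 of 6 tested, 1 higher in HFpEF-Veh and 1 lower after the dose) summed to 6.49 to 8.0 CPM, 8.82 to 12.4 CPM and 8.71 to 10.9 CPM. Both sums lay above all controls in all 8 hearts with the model, although only 1 gene of each list was called higher there. The median log2 fold changes with the model and after the dose were 0.28 and 0.29 for tested valve genes, and 0.13 and 0.82 for tested epicardial genes. Of 6 genes of liver-type plasma proteins, 5 were lower in HFpEF-Veh and 0 were called after the dose, with sums of 28.7 to 84.4 CPM, 3.59 to 15.4 CPM and 4.1 to 72.5 CPM. The sums of mast cell genes (up to 1.95 CPM in any library) and fat cell genes (up to 1.94 CPM) overlapped between HFpEF-Veh and Control-Veh, as did those of atrial muscle genes. In exact two-sided permutation tests of the summed levels over libraries (42 tests, 4 libraries against 4), the smallest possible p is 0.0286. It becomes 0.075 after Benjamini-Hochberg adjustment, so no marker sum could pass. Macrophage, red cell, endothelial, smooth muscle and ventricular muscle sums reached this p with the model and after the dose. The fibroblast sum reached it after the dose but not with the model. Valve, epicardial and liver-type sums reached it with the model but not after the dose. The fibroblast sum overlapped between HFpEF-Veh and Control-Veh, with C1 above V3 (adjusted p = 0.133), and that of activated fibroblasts overlapped in both comparisons (adjusted p = 0.164 with the model and 0.318 after the dose). None of the fibroblast and endothelial markers was at 0 in all libraries of a group. C1 stood above the other controls for Timp3, Mmp2 and Loxl2. It had the highest sums of its group for fibroblast, macrophage, endothelial, valve, epicardial and fat cell genes. Its sums of activated fibroblast, atrial muscle and ventricular muscle genes were the lowest of its group. The part of these cells in the member results was not tested.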

How the data were processed

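Left ventricle RNA of 12 mice (3 groups of 4) was measured. The authors trimmed reads, estimated transcript levels with Salmon (1.6.0 per the submitters' processing notes) and deposited estimated counts, TPM and effective lengths per gene. The labels name the build hg38, but the rows are mouse genes and the methods name GRCm38.p6. Deposited estimated counts were rounded, filtered (filterByExpr) and scaled by TMM, and tested with edgeR 4.0.16 quasi-likelihood in R 4.3.3, in 1 model of 12 libraries with 9 residual degrees of freedom and Benjamini-Hochberg adjustment over 14333 genes. A member was called at an adjusted p under 0.05. Depth was 61.2 to 83.9 M counts per library, and the biological coefficient of variation was 0.232. Alternatives used DESeq2 1.42.0, or limma 3.58.1 on the deposited TPM with a pseudocount of 1 or 0.1. The protein-coding version, rescaled within each library, follows the study's own scale. The counts were the main unit because they were among the deposited values. The main fit does not correct for the deposited lengths, which differ between groups, and the fit with lengths as an offset does. The edgeR, limma and DESeq2 fits were checked on simulated counts. These held no difference in length between groups, and limma was run there on CPM and not TPM. That check therefore says nothing about the TPM and length scales, on which the calls differ. Members were Lox and all symbols made of Mmp, Timp, Adamts, Adamtsl or Loxl and a number. Members called in any comparison were described per library, uncalled ones of at least 10 CPM by group means. In each list of neighbouring genes, the 2 with the smallest p were named. Members and lists were chosen with earlier results of these data known. Positions, transcripts and shared 31-base words are from GENCODE M21 (GRCm38). No value column was left unused.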

Additional observations from a re-analysis of the deposited data

Results flagged for a closer look

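In 7 of 138 groups of 4 libraries, the highest or lowest library of a tested member lay far from the other 3 for the width of the group (Dixon's ratio above its 95% critical value). Chance gives about 1 such group in 20, which is close to this number. Timp3 was at 475 CPM in C1, beside 368 to 375 CPM in the other control libraries. Adamts15 was at 3.69 CPM in C4, beside 4.19 to 4.30 CPM. Mmp8, a neutrophil collagenase, was at 0.590 CPM in V2, beside 0.0860 to 0.122 CPM in the other HFpEF-Veh libraries. Among treated libraries, T4 was at 0.417 CPM for Mmp8 (others 0 to 0.0531 CPM), at 2.5 CPM for Mmp3 (others 1.43 to 1.48 CPM) and at 4.67 CPM for Mmp23 (others 5.39 to 5.53 CPM). Loxl2 was at 9.07 CPM in T1, beside 9.98 to 10.1 CPM in the other treated libraries. Without T4, Mmp3 differed after the dose by -1.36 on the log2 scale (edgeR, adjusted p = 0.00805), and without C1 Timp3 differed with the model by 0.76 (adjusted p = 0.000322). The causes were not tested.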

How the results depend on the processing

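No paired analysis was possible because each mouse has its own number and none recurs across groups. Counts of called members in HFpEF-Veh against Control-Veh (19), after the dose (16) and in treated against control hearts (3) stayed within 1.5 times under RLE or upper quartile scaling, both other filters, fits of 2 groups and removal of mitochondrial and globin genes, and so did the first 2 with DESeq2, which called 5 in the third. With deposited lengths as an offset the counts were 12, 9 and 1. On log2(TPM + 1) they were 1, 3 and 0, on log2(TPM + 0.1) 2, 3 and 0, and on log2(TPM + 1) of protein-coding genes 9, 7 and 1. The shares of all genes called moved too, from 21.2%, 19.3% and 5.86% in the main fits. They were 10.1%, 8.49% and 1.42% with lengths and 1.2%, 16.0% and 0.0628% on log2(TPM + 1). On log2(TPM + 0.1) they were 2.1%, 18.3% and 0.0767%, and on protein-coding TPM 7.95%, 5.58% and 0.733%. Beside the counts of 0 in the third comparison, 9 members had an unadjusted p under 0.05 on each of those scales. With the red cell score as a covariate the first 2 counts were 0 and 0 (12 and 13 at an unadjusted p under 0.05) and the third was 2. Leaving out 1 library gave 14 to 20, 9 to 17 and 1 to 5 members, the lowest dose counts being 10 without T1 and 9 without T2, and the third count 5 without T1 and 1 without T2. In these fits the share of all genes called ran from 13.7% to 27.5%, from 10.2% to 22.4% and from 2.12% to 5.58%.

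Signs reversed in 13 cases among the called members. With the red cell covariate, Adamtsl4 was 0.13 with the model. After the dose, Loxl3 was 0.11 with lengths as an offset and 0.049 on protein-coding TPM. On log2(TPM + 1), Adamts2 was 0.055, Adamts5 0.036, Loxl1 0.24, Loxl3 0.22 and Timp2 0.20. On log2(TPM + 0.1), they were 0.12, 0.11, 0.33, 0.45 and 0.23, where the median of all genes was 0.34. Leaving out 1 library kept the call in 375 of the fits of called members and lost it in 81, with 0 reversals, and the other settings kept it in 299 and lost it in 142. The cause was not tested. Of the 16 dose calls, 15 kept their sign with lengths as an offset and 15 on protein-coding TPM. On log2(TPM + 1) and log2(TPM + 0.1) of all tested genes, 11 did so on each. The red cell fit of Adamtsl4 used no lengths. After the dose the median of all genes was 0.17 on log2(TPM + 1) and 0.34 on log2(TPM + 0.1). It was -0.0097 with lengths as an offset and -0.012 on protein-coding TPM. For members with 0 counts, levels under 0.0319 to 0.0521 CPM could not be detected at this depth.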
